A study of Homo sapiens with 24 samples.

Results

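The double degron line of HCT116, a human colorectal carcinoma cell line, was compared with WT cells, which carry no degron tag, before any auxin was given, which gives the RNA difference that goes with carrying both tags before the tagged proteins are degraded. The samples labelled UHRF1-AID/DNMT1-AID at day 0 (3 libraries) and WT at day 0 (3 libraries) were taken by these labels, 6 of the 24 RNA-seq libraries of the series, and all Ensembl genes were considered. UHRF1-AID day 0 and DNMT1-AID day 0 (3 libraries each) and the day 4 libraries of WT and the compound line (3 each, after 4 days of auxin) were used only where they show where the compound line differs.

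In the compound line UHRF1 carries an auxin-inducible degron (AID) with mClover at its C-terminus and DNMT1 carries an AID with mRuby2 at its N-terminus, both inserted with Cas9 at the endogenous genes and selected with drugs. UHRF1-AID and DNMT1-AID cells carry 1 of these tags each. In the study's scheme of how the lines were made, the compound line was derived from UHRF1-AID cells and not directly from WT, and which UHRF1-AID clone or clones were used is not stated in the sources used here. All lines, WT included, hold a doxycycline-inducible OsTIR1, the plant F-box protein that couples auxin to the degron. The protocol gave 2 µg/ml doxycycline with 20 µM auxinole, an OsTIR1 inhibitor, for 1 day and then 500 µM auxin, and the labels call day 0 the time before auxin. The sources do not state whether day 0 cells had already received doxycycline and auxinole. The study describes the replicates of a tagged line as different clones, whereas nothing says how the WT libraries were separated, so the tags and the picking, selection and culture of clones cannot be told apart in a comparison with WT.

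UHRF1 binds hemimethylated DNA and ubiquitinates histone H3 behind the replication fork, and DNMT1, recruited to these marks, copies the methylation pattern onto the new strand. A degron leaves a protein in place until auxin is added, but a tag may change the level or activity of the protein it is fused to, and a line grown from single cells carries whatever its founder cell had. HCT116 cells have a stabilised beta-catenin, so that WNT target genes are transcribed without added ligand, and they grow as an epithelium.

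Counts on genes per library were between 18883942 and 19778281 in WT and between 22740070 and 23972076 in the compound line. WT replicate 3 stood apart. Its counts differed from WT replicates 1 and 2 by a chi-square per degree of freedom of 50.1 and 53.7, against 3.52 between those 2 and values from 7.44 to 10.9 among the compound libraries. Long genes were relatively high in WT replicates 1 and 2 (Spearman's rho with exon length of 0.30 and 0.28 across genes), relatively low in WT replicate 3 (-0.30), and close to neutral in the compound libraries (-0.08 to -0.01). All 12 day 0 libraries were aligned in 1 folder. The epithelial markers EPCAM (425 to 532 CPM in WT and 479 to 502 in the compound line), KRT8 and KRT18 were present in every library, whereas of the 16 colorectal epithelial markers CDX1 and CEACAM5 were at 0 in all 6 and VIL1, LGALS4, CDH17 and GPA33 were at or close to 0, at most 0.169 CPM in any of them. The immune genes CD3D and CD3E and the fibroblast genes COL1A2, LUM and PDGFRA were at 0 in all 6, and the summed levels were 3.49 to 8.60 CPM in WT and 7.31 to 8.68 in the compound line over the 10 fibroblast markers, 1.13 to 1.59 and 1.58 to 3.83 over the 14 immune and blood markers, and 0.450 to 1.38 and 0.613 to 0.870 over the 8 endothelial markers.

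The 2 target genes themselves were not called by edgeR. Levels are CPM, the counts scaled to library size with TMM factors, and folds are log2 fold changes from edgeR's quasi-likelihood test. UHRF1 was at 89.2, 81.4 and 50.5 CPM in WT and at 78.4, 177 and 198 CPM in the compound line (log2 fold change 1.00, standard error 0.37, adjusted p = 0.196). The lowest compound library lay inside the WT range. DNMT1 was at 171, 180 and 76.9 CPM in WT and at 77.5, 80.6 and 41.0 CPM in the compound line (log2 fold change -1.13, standard error 0.40, adjusted p = 0.174). The groups overlapped there too, through WT replicate 3, and DESeq2 called DNMT1 lower. In the single-tag lines UHRF1 was at 149 to 197 CPM in UHRF1-AID cells and DNMT1 at 29.0 to 74.0 CPM in DNMT1-AID cells. The counts measure RNA and say nothing of protein, and in such bulk libraries fewer cells of a type and less RNA per cell cannot be told apart.

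A gene was called where its log2 fold change was beyond 1 in either direction at an adjusted p below 0.05. Called genes made up 1.31% of the 14023 genes tested, 0.656% in each direction, and replicates did not overlap for 28.1% of all genes tested. An unadjusted p under 0.05 was reached by 20.2% of all genes tested, and DESeq2 called 1.89% of those it tested. The higher genes were mostly of low level in WT (median 2.48 CPM, and under 1 CPM for 26 of the 92) and the lower genes of higher level (median 19.3 CPM, over 10 CPM for 56 of the 92). The median absolute log2 fold change was 1.59 among higher and 1.47 among lower genes, and 26 higher and 27 lower genes changed over 4-fold. Protein-coding genes were 82 of the higher and 83 of the lower genes. The counts moved with every library left out. Without WT replicate 3, which stood apart, 151 genes were higher and 215 lower. Without WT replicate 1 the counts were 18 and 43, without WT replicate 2, 16 and 39, and without compound replicates 1, 2 and 3, 52 and 80, 17 and 20, and 12 and 18.

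**Figure D1:**
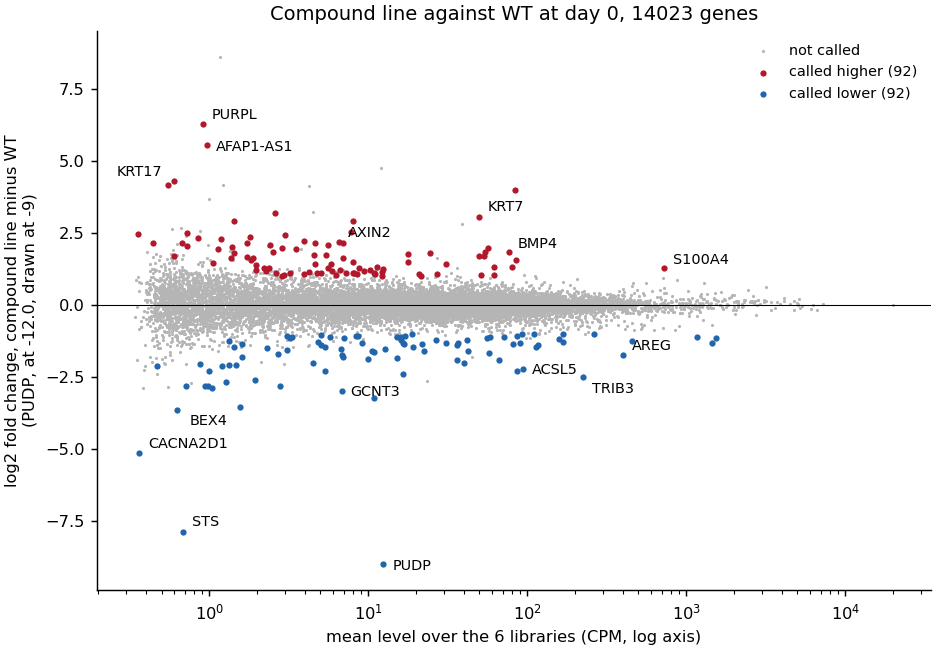
Each point is 1 of 14023 genes at day 0, with its mean level over the 6 libraries in CPM on a log axis and the log2 fold change of the compound line minus WT. The 92 higher genes (red) and 92 lower genes (blue) past the threshold reach from low to high levels, and PUDP, drawn at the foot of the axis, and STS lie below the other lower genes.

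Calls that did not depend on any single library were made for 6 higher and 12 lower genes, and all other called genes, among them many named here for the lists they belong to, lost the call when at least 1 of the 6 libraries was omitted. The higher ones were PLK2, KRT23, TWIST1, BDNF, CLIC3 and BMP4. PLK2 (ENSG00000145632, chromosome 5, 58453982 to 58460260 in hg38), a polo-like kinase and p53 target, was at 35.3, 34.7 and 36.2 CPM in WT and at 78.0, 83.5 and 104 CPM in the compound line (35.4 ± 0.778 against 88.6 ± 13.8, SD, n = 3). BMP4 (ENSG00000125378, chromosome 14, 53949736 to 53958761), a TGF-beta family ligand, was at 33.8, 29.95 and 34.6 CPM in WT and at 88.9, 111 and 161 CPM in the compound line. Every compound library lay above every WT library for both genes, and for BMP4 the compound libraries were spread more widely than the WT ones. BDNF, a neurotrophin, was at 42.5, 41.7 and 44.7 CPM in WT and 98.4, 161 and 124 CPM in the compound line (log2 fold change 1.55, standard error 0.16, adjusted p = 0.00647). It was also above every WT library in UHRF1-AID (78.0, 69.7 and 74.5 CPM) and DNMT1-AID cells (90.95, 64.5 and 103 CPM). CLIC3, a chloride intracellular channel family protein, rose from 7.66, 8.50 and 8.05 CPM to 23.1, 23.4 and 36.4 CPM.

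The 12 lower genes were ACSL5, PUDP, GPAT3, BEX4, AREG, CDKN2B, DUSP5, HBEGF, LINC03040, TBC1D19, DPP4 and IGF2BP3. ACSL5 (ENSG00000197142, chromosome 10, 112374018 to 112428380), a long-chain acyl-CoA synthetase, had the smallest p of all genes tested: 143, 158 and 164 CPM in WT against 34.4, 34.7 and 32.6 CPM in the compound line. The estimate of -2.21 on the log2 scale (standard error 0.09, adjusted p = 7.86e-05) lay between -2.26 and -2.18 whichever library was left out. In UHRF1-AID cells ACSL5 was at 49.3, 80.4 and 50.2 CPM, below every WT library, and in DNMT1-AID cells at 136, 192 and 74.3 CPM. Against UHRF1-AID cells the compound line had a log2 fold change of -0.85 for ACSL5 (edgeR, standard error 0.21, adjusted p = 0.0854), which was not called. CDKN2B, which encodes the CDK4 and CDK6 inhibitor p15, was at 26.5, 33.3 and 23.3 CPM in WT and at 6.70, 4.92 and 4.26 CPM in the compound line. IGF2BP3, an RNA-binding protein of fetal and tumour cells, was at 112, 119 and 119 CPM against 46.4, 56.2 and 35.6 CPM. TBC1D19, a TBC domain protein, was at 22.7, 23.6 and 26.2 CPM against 9.90, 8.03 and 10.5 CPM, and the non-coding LINC03040 had a log2 fold change of -1.33. BEX4 was low in WT (2.78, 3.07 and 2.82 CPM) and lower still in the compound line (0.219, 0.302 and 0.217 CPM).

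Promoter windows of the called genes were compared because UHRF1 and DNMT1 act on CpG dinucleotides. The 250 bases before the start listed by RefSeq (GRCh38.p14) were found for 56 of the 92 higher, 75 of the 92 lower and 10572 of all genes tested. The median number of CpG was 15 in the higher genes, 17 in the lower genes and 21 in all genes tested, and an observed over expected CpG ratio above 0.6 was found in 48.2% of the higher, 61.3% of the lower and 81.4% of all windows. This is a description of windows with no test, and genes without a listed window are not in it. The genes tested were not matched to the called genes by level, and the higher genes were mostly low in WT. The windows of 2 higher and 2 lower genes whose calls did not depend on a single library are given 5′ to 3′ on the strand of the gene with each CpG in capitals, to show how far they differ. PLK2 lies at chr5:58460087-58460336 on the minus strand, BMP4 at chr14:53955051-53955300 on the minus strand, ACSL5 at chr10:112375018-112375267 on the plus strand and PUDP at chrX:7148154-7148403 on the minus strand.
PLK2: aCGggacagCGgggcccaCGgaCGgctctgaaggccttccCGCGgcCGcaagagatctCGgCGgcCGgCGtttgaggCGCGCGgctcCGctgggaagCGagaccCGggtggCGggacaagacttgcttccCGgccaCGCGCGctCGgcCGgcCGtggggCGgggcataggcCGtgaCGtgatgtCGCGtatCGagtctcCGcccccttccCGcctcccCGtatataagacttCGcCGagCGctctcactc
BMP4: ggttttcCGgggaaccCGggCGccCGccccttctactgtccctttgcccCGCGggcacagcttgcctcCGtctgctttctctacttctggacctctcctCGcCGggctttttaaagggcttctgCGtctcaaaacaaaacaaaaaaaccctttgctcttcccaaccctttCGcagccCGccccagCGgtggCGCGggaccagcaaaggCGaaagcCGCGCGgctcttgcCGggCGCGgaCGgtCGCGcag
ACSL5: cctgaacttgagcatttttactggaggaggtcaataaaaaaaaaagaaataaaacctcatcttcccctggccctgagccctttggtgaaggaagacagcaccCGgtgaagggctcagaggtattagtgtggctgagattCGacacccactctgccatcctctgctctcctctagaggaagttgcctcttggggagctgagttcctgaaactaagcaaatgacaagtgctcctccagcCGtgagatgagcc
PUDP: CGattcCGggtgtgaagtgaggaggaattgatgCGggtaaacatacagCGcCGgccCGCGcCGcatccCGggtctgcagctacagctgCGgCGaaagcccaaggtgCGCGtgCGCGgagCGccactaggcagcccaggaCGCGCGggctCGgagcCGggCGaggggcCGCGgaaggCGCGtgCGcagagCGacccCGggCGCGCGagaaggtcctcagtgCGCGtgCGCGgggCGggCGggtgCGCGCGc
The PLK2 window holds 37 CpG and the PUDP window 41, while that of ACSL5 holds 3 and that of BMP4 25. Of these 4 windows only that of ACSL5 lies below the median of all genes. The 4 are examples and do not stand for the higher and lower genes as groups. The windows of BDNF and CLIC3, also higher without dependence on a single library, hold 15 CpG each, below that median.

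EGFR ligands and genes that the ERK cascade switches on were among the lower genes. Of the 43 tested genes of a list of EGFR ligands, ERBB receptors and ERK output genes, 6 were called lower and 0 higher, 34 lay below 0, and the median log2 fold change was -0.54, against 0.01 over all genes tested. For this list and those that follow, 0.656% of all genes tested were called in each direction. All lists were chosen with earlier results of these data known. AREG, the EGFR ligand amphiregulin, was at 571, 644 and 635 CPM in WT and at 230, 156 and 174 CPM in the compound line (log2 fold change -1.74, standard error 0.16, adjusted p = 0.0064). In UHRF1-AID cells AREG was at 346, 288.5 and 258 CPM, below every WT library, and in DNMT1-AID cells at 335, 647 and 196 CPM. HBEGF, a further ligand, was at 10.3, 9.52 and 10.1 CPM against 3.72, 3.45 and 3.35 CPM. The ligand EREG was at 1501, 1531 and 1744 CPM against 856, 606 and 783 CPM. Replicates of all 3 ligands did not overlap between the groups. DUSP5, a phosphatase that ERK induces and that acts on ERK, was at 229, 230 and 256 CPM against 115, 91.2 and 91.8 CPM. ERRFI1, a feedback inhibitor of EGFR, had a log2 fold change of -1.32 and SYK, a tyrosine kinase, of -2.62. Without WT replicate 3, 7 members of the list were called lower.

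Lower genes were also found in the amino acid response, which the transcription factor ATF4 drives when amino acids are short or the endoplasmic reticulum is stressed. Of the 34 tested genes of the ATF4 and unfolded protein response list, 6 were called lower and 0 higher, 30 lay below 0, and the median log2 fold change was -0.65. TRIB3, a pseudokinase induced by ATF4, was at 332, 368 and 433 CPM in WT and at 96.4, 53.4 and 53.9 CPM in the compound line (log2 fold change -2.48, standard error 0.26, adjusted p = 0.00943). SLC7A11, the cystine transporter subunit, was at 139, 190 and 98.7 CPM against 36.04, 22.8 and 29.7 CPM. PSAT1, an enzyme of serine synthesis, was at 527, 677 and 709 CPM against 308, 238 and 275 CPM. The compound libraries were below all WT libraries for each of these. ASNS, asparagine synthetase, had a log2 fold change of -1.81, ATF3 of -1.34 and SESN2, also a p53 target, of -1.58.

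Among the lipid genes 2 fell. Of 27 tested genes of the acyl-CoA synthetase and triglyceride synthesis list, ACSL5 and GPAT3 were called lower and 0 higher, and the list's median log2 fold change was -0.11. GPAT3, which adds the fatty acyl chain to glycerol 3-phosphate, was at 79.0, 94.3 and 89.2 CPM in WT and at 30.4, 29.2 and 23.8 CPM in the compound line (log2 fold change -1.67, standard error 0.13, adjusted p = 0.00441). The related GPAT4, GPAM and ACSL3 had log2 fold changes of 0.03, -0.11 and -0.21 (adjusted p of 0.92, 0.665 and 0.239). Of 32 tested genes of cholesterol and fatty acid synthesis 0 were called by edgeR or DESeq2. Of these 8 had an unadjusted p under 0.05, a larger share than the 20.2% of all genes. The stearoyl-CoA desaturase SCD, with an adjusted p of 0.0171, had a log2 fold change of -0.71.

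Keratins and WNT target genes held members that rose. Of 14 tested keratins, 3 were called higher and 0 lower, and the median log2 fold change was 0.46. KRT23 was at 20.8, 24.01 and 24.9 CPM in WT and at 67.2, 65.3 and 96.7 CPM in the compound line, and KRT7, a keratin of simple epithelia outside the colon, was at 9.56, 12.7 and 9.07 CPM against 60.5, 52.8 and 153 CPM. KRT7 was far higher in compound replicate 3 than in the other two. KRT17 was at or under 3 counts in each WT library and at 1.14, 1.12 and 1.17 CPM in the compound line, at least 7.33-fold higher. It has near-identical pseudogenes, so its count is uncertain. The epithelial keratins KRT8 and KRT18 had log2 fold changes of 0.52 and 0.50, below the fold threshold. Of 24 tested WNT/beta-catenin targets and antagonists 3 were called higher and 0 lower (median log2 fold change 0.15): BMP4, AXIN2 and SP5. AXIN2, a feedback inhibitor of the pathway, was at 2.44, 2.82 and 1.75 CPM in WT and at 7.49, 10.3 and 14.5 CPM in the compound line, and SP5, a transcription factor induced by WNT, had a log2 fold change of 1.56.

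Mesenchymal and intestinal genes changed in few members. Of 18 tested genes of the list of EMT regulators and mesenchymal genes 2 were called higher and 1 lower (median log2 fold change 0.29). TWIST1, a transcription factor of mesenchymal cells, was at 2.39, 2.82 and 2.20 CPM in WT and at 8.19, 8.85 and 8.27 CPM in the compound line. S100A4, a calcium-binding protein, was at 346, 373 and 544 CPM against 956, 975 and 1179 CPM. Without WT replicate 3, 4 members of this list were called higher and 1 lower. Of 38 tested epithelial junction and adhesion genes edgeR and DESeq2 called 0 (edgeR 1 lower without WT replicate 3). Of these 14 had an unadjusted p under 0.05, a larger share than the 20.2% of all genes. The claudin CLDN7 had a log2 fold change of -0.58 with an adjusted p of 0.0393. Of 13 tested genes of intestinal identity and differentiation 2 were called lower and 0 higher (median log2 fold change -0.41). DPP4, a brush border peptidase, was at 11.7, 10.7 and 8.95 CPM in WT and at 3.20, 3.41 and 2.83 CPM in the compound line. GCNT3, a mucin-type glycosyltransferase, was at 10.0, 12.6 and 13.5 CPM against 0.526, 1.55 and 2.57 CPM.

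Interferon-stimulated genes had 5 of 48 tested members called higher, 0 lower and a median log2 fold change of 0.07. BST2, the restriction factor tetherin, was at 2.20, 1.54 and 1.30 CPM in WT and at 5.61, 5.05 and 12.1 CPM in the compound line. IFIT1 was at 3.71, 4.51 and 6.93 CPM against 11.3, 12.1 and 13.5 CPM, and IFITM1 at 2.29, 2.10 and 1.80 CPM against 7.49, 4.88 and 8.66 CPM. All were low at day 0. At day 4 the log2 fold change of the compound line against WT was 4.35 for BST2, 2.31 for IFIT1 and 5.19 for IFITM1. IFITM1 has near-identical relatives, so its count is uncertain.

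Genes whose promoters or control regions are methylated in many cells had few called members. Of 12 tested cancer/testis genes, which are normally silenced by promoter methylation in somatic cells, 0 were called by edgeR (median log2 fold change 0.11). An unadjusted p under 0.05 was reached by 4 of them, a larger share than the 20.2% of all genes. DESeq2 called MAGEA12 higher, and 25 of the 70 listed had no count in any of the 6 libraries. Without WT replicate 3, 2 of them were called higher. DMRT1 and PIWIL2, with the smallest p, had log2 fold changes of -1.81 and -1.42 with adjusted p of 0.125 and 0.149. Imprinted genes (28 tested, median -0.06), clustered protocadherins (3 tested, -0.55) and the DNA methylation machinery (31 tested with UHRF1 and DNMT1, 0.01) had 0 called genes by edgeR. Of these lists 8, 2 and 10 genes had an unadjusted p under 0.05, in each a larger share than the 20.2% of all genes. DESeq2 called DNMT1 alone. Without WT replicate 3 edgeR called 1 gene of the machinery lower, which was not DNMT1. CDKN1C, an imprinted CDK inhibitor, had an adjusted p of 0.0338 at a log2 fold change of -0.57, and UHRF2, the paralogue of UHRF1, of 0.0476 at -0.54. GADD45A, a p53 target that has been linked to demethylation, was at 133, 135 and 132 CPM in WT and at 75.3, 69.8 and 61.3 CPM in the compound line (log2 fold change -0.97, adjusted p = 0.00787), just short of the fold threshold of 1 and so not called.

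The proliferation lists held no called gene. Of 58 S phase and E2F target genes (median log2 fold change -0.06) and 54 G2/M genes (0.05) edgeR and DESeq2 called 0, as of 77 cytosolic ribosomal protein genes (0.09), with 10, 10 and 2 genes at an unadjusted p under 0.05, a share below that of all genes (20.2%) in each list. Among 37 p53 targets PLK2 was called higher and SESN2 lower (median 0.22). Of these targets 26 lay above 0 and 11 below. An unadjusted p under 0.05 was reached by 22 of them, a larger share than the 20.2% of all genes. With no minimum fold change, 9 had an adjusted p below 0.05 (edgeR). The 38 hypoxia and glycolysis genes had a median of -0.24 with 1 called higher (0.656% of all genes), the carbonic anhydrase CA12. CA12 went against most of the list, of which 32 lay below 0 and 6 above. An unadjusted p under 0.05 was reached by 15 of the 38, a larger share than the 20.2% of all genes. All 4 tested metallothioneins lay below 0 (median -0.60, 0 called by edgeR or DESeq2). Of these 3 had an unadjusted p under 0.05, a larger share than the 20.2% of all genes. Of 18 tested genes of the list of MHC class II, TNF and death receptors and perforin, the T cell co-stimulatory ligand TNFSF9 was called higher. Of 26 HOX genes HOXB9 was called lower (0.656% of all genes in each direction). Without WT replicate 3, 2 genes of either list were called. All 13 mitochondrially encoded mRNAs lay above 0 (median 0.39, 0 called by edgeR or DESeq2), and 4 had an unadjusted p under 0.05, a larger share than the 20.2% of all genes. Their summed levels were 15000 to 17230 CPM in WT and 16890 to 23930 CPM in the compound line, which overlap.

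Some genes were on in 1 group and at or under 3 counts in every library of the other. Those off in WT were KRT17, PURPL, COL6A3, AFAP1-AS1 and TBX4. PURPL, a non-coding RNA induced by p53, was at 2.89, 0.950 and 1.57 CPM in the compound line, at least 11.5-fold higher than the WT floor. AFAP1-AS1, an antisense RNA whose reads may not be told apart from those of AFAP1 as the strand setting is not stated, was at 0.613, 1.17 and 3.92 CPM, at least 12.1-fold higher. Collagen COL6A3 and the transcription factor TBX4 were at least 6.67-fold and 3.90-fold higher. Those off in the compound line were PUDP, STS and CACNA2D1. The calcium channel subunit CACNA2D1 was at 0.683, 0.819 and 0.619 CPM in WT and at least 5.42-fold lower in the compound line.

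PUDP and STS were the 2 called genes without a single count in any compound library. PUDP (ENSG00000130021, chromosome X, 7048920 to 7148190), a pseudouridine phosphatase, was at 26.0, 21.4 and 27.0 CPM in WT (533, 418 and 479 reads), at least 190-fold above the compound line's floor of 3 counts per library. STS (chromosome X, 7219456 to 7354810), the steroid sulfatase, starts 71266 bases after the end of PUDP in the gene models used for counting. By the start listed in RefSeq, its promoter window lies at chrX:7147040-7147289, inside the counted span of PUDP. STS was at 1.07, 1.79 and 1.24 CPM in WT (22, 35 and 22 reads), at least 10.5-fold above the compound floor. PNPLA4 (7898247 to 7927739), 750057 bases from PUDP and the only other gene within 2 Mb that passed the filter, was at 24.2, 24.5 and 34.4 CPM in WT and at 28.1, 32.3 and 26.2 CPM in the compound line. All 3 libraries of the DNMT1-AID line and UHRF1-AID replicates 1 and 3 had PUDP at 23.7 to 32.5 CPM. UHRF1-AID replicate 2 had 0 counts of both PUDP and STS, as the compound libraries did. At day 4 the compound libraries again had 0 counts of both, and UHRF1-AID replicate 2 had 6 and 1, against 630 and 680 counts of PUDP in the other UHRF1-AID libraries.

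The same library stood with the compound line at other genes. OGA (chromosome 10, 101784443 to 101818465), which removes O-linked GlcNAc from proteins, was at 129, 148 and 107 CPM in WT and at 49.6, 52.9 and 53.2 CPM in the compound line (log2 fold change -1.32, standard error 0.14, adjusted p = 0.00647), and at 115, 51.7 and 137 CPM in UHRF1-AID replicates 1, 2 and 3. ANAPC5, a subunit of the anaphase-promoting complex, was at 116, 111 and 141 CPM in WT, at 59.2, 68.0 and 59.2 CPM in the compound line and at 118, 60.3 and 125 CPM in UHRF1-AID cells. GLYR1, a nucleosome-binding protein that was below the fold threshold against WT (log2 fold change 0.94), was at 44.4, 40.6 and 34.3 CPM in WT, at 74.2, 77.1 and 81.3 CPM in the compound line and at 42.9, 79.3 and 44.1 CPM in UHRF1-AID cells. These 3 genes were chosen after their values were seen. In the separate day 4 libraries UHRF1-AID replicate 2 again lay apart from replicates 1 and 3 and toward the compound line. It had 44.9 CPM of OGA against 155 and 169, 66.3 CPM of ANAPC5 against 106 and 121, and 58.7 CPM of GLYR1 against 35.6 and 38.2. Whether libraries of the same number at day 0 and day 4 come from the same clone is not stated in the sources used here. The scheme that places the compound line after UHRF1-AID cells does not name the clone, and its part in these values was not tested.

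The position of each single-tag library among the 3 of its line was then counted over the called genes. The ranking does not use the compound or WT libraries, but the genes counted were chosen with them. UHRF1-AID replicate 2 was the highest of the 3 for 65 of the 92 higher genes (70.7%, against 31.6% of all genes tested) and the lowest for 76 of the 92 lower genes (82.6%, against 38.5%). DNMT1-AID replicate 3 was the highest of its line for 60 of the higher genes (65.2%, against 36.0%) and the lowest for 64 of the lower genes (69.6%, against 45.9%). The other 4 single-tag libraries were at or below 19.6% and 23.9%. In both single-tag lines 1 library thus held most of the positions nearest to the compound line. Genes are not independent, and this count was not tested. In UHRF1-AID cells at day 4, replicate 2 was the highest for 39.1% of the higher genes against 35.4% of all genes and the lowest for 41.3% of the lower genes against 41.5%.

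The amino acid response genes showed the same order of libraries. The median over the 34 tested members of the ATF4 list of log2(CPM + 0.5), relative to each gene's median over the 12 libraries, was 0.12, 0.17 and 0.20 in WT and -0.16, -0.41 and -0.34 in the compound line. It was 0.26, -0.26 and 0.07 in UHRF1-AID replicates 1, 2 and 3 and -0.04, 0.25 and -0.44 in DNMT1-AID replicates 1, 2 and 3. TRIB3 followed this order, at 359, 113 and 227 CPM in UHRF1-AID cells and at 202, 445 and 54.3 CPM in DNMT1-AID cells. The heat shock genes HSPA1A and HSPA1B, chosen after their values were seen, are near-identical copies whose counts may be split between them. They were called higher in the compound line and were also at their line's highest in UHRF1-AID replicate 2 and DNMT1-AID replicate 3. HSPA1B was at 25.8, 28.5 and 20.1 CPM in WT and 49.8, 86.4 and 110 CPM in the compound line, at 57.5 CPM in the former and 78.9 CPM in the latter. Mitochondrially encoded genes took 2.85% of counts in UHRF1-AID replicate 2 (2.27% and 2.33% in its line) and 2.84% in DNMT1-AID replicate 3 (1.62% and 1.47%), against 1.69% to 2.08% in WT and 2.06% to 2.85% in the compound line. The length trend of DNMT1-AID replicate 3 (rho of 0.09) also differed from that of its line (-0.30 and -0.26). The part of either in the result was not tested.

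**Figure D2:**
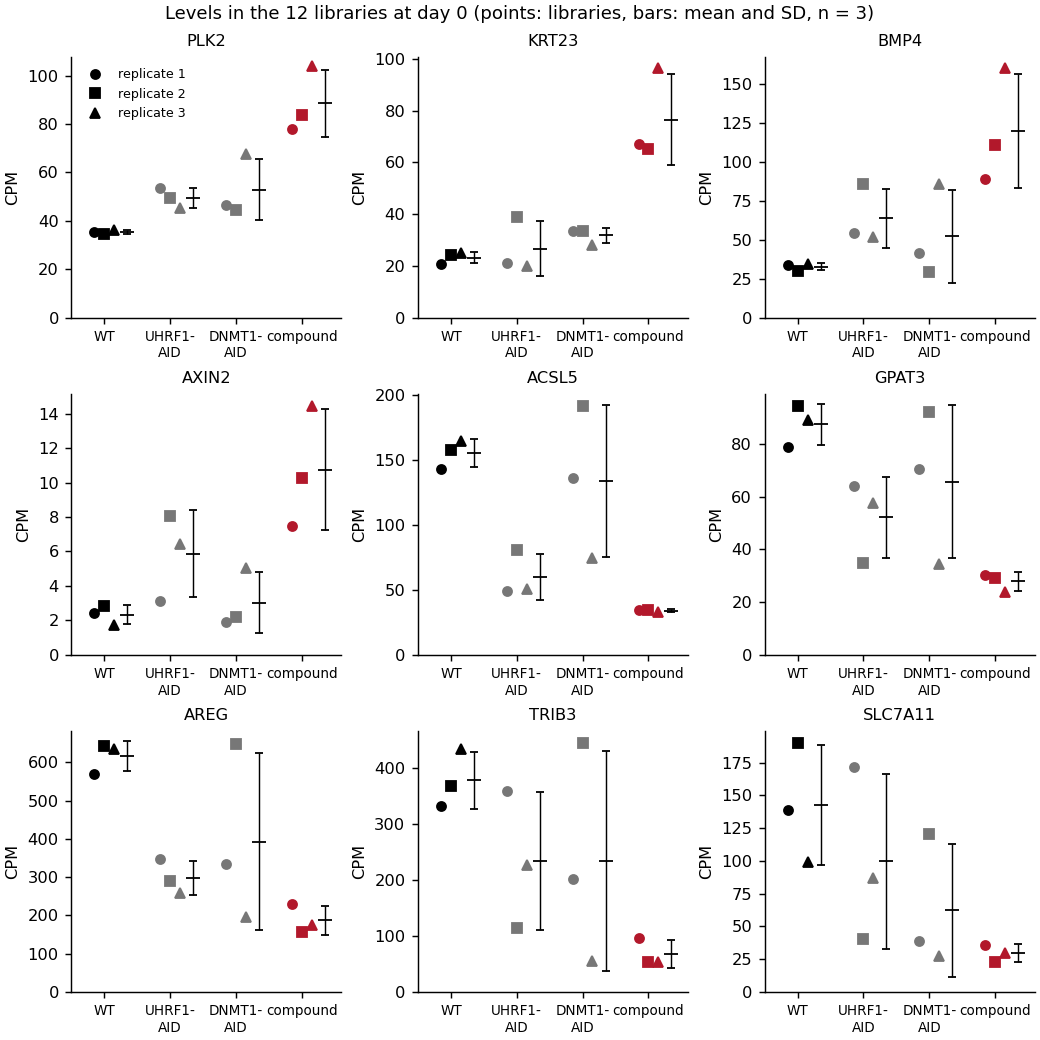
CPM of 9 genes in the 12 libraries at day 0, by line, with 1 point per library, its shape giving the replicate number, and bars for the mean and SD of 3 libraries. The compound libraries lie apart from WT for each gene. UHRF1-AID replicate 2 and DNMT1-AID replicate 3 lie nearer to them than the other libraries of their lines for BMP4, AXIN2, GPAT3, TRIB3 and SLC7A11. For PLK2, ACSL5 and AREG another UHRF1-AID library lies nearest, and for KRT23 DNMT1-AID replicate 3 lies farthest.

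Against the single-tag lines fewer genes were called. Compared with UHRF1-AID cells 32 genes were called higher and 18 lower, 0.352% of 14217 tested. DPP4 (log2 fold change -1.31, adjusted p = 0.0121), TWIST1 (1.47, adjusted p = 0.0241), IFIT1 (1.09, adjusted p = 0.0225) and S100A4 (1.08, adjusted p = 0.0438) were among them, and PUDP did not pass the filter on low counts. Compared with DNMT1-AID cells 4 genes were called, 0.0286% of 14007 tested. They were PUDP, ANAPC5 and OGA, which were lower, and GLYR1, which was higher (log2 fold change 1.04, standard error 0.11, adjusted p = 0.0196). Both counts rested on single libraries. Without DNMT1-AID replicate 3, 1017 genes were higher and 94 lower against DNMT1-AID cells. Against UHRF1-AID cells the counts lay between 0 and 133 higher and between 0 and 105 lower as 1 library was left out. The compound libraries are shared by these comparisons and the one with WT, so that their lists are not independent.

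The departure from additive effects, the compound minus UHRF1-AID difference less the DNMT1-AID minus WT difference, was tested over all 12 day 0 libraries. edgeR called 0 of 14472 genes, 0.0% called, with 358 genes (2.47%) at an unadjusted p under 0.05, and DESeq2 called 3 lower, PUDP, STS and ARRDC3. Without UHRF1-AID replicate 2, edgeR called PUDP, STS and ANAPC5 lower. The median standard error of the departure was 0.25 on the log2 scale, wider than the 0.16 of the compound against WT comparison. The estimate for ACSL5 was -0.59 (standard error 0.40), for AREG 0.00 (0.49), for PLK2 0.27 (0.23) and for KRT23 1.08 (0.33), so that departures of the size of the single effects were not resolved. By themselves the single tags gave few calls: against WT edgeR called 0 of 13894 genes in UHRF1-AID cells, with 512 at an unadjusted p under 0.05, and 1 of 13833 in DNMT1-AID cells. The spread among replicates was wider in WT and DNMT1-AID cells (biological coefficient of variation 0.216 and 0.243) than in UHRF1-AID (0.125) and compound cells (0.0918).

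The sign of the day 0 difference was mostly the same at day 4. The day 4 comparison of the compound line with WT uses 6 other libraries, from cells given auxin for 4 days. Of the 92 genes higher at day 0, 83 were tested at day 4, 78 lay above 0 (94.0%, against 48.5% of all genes tested on both days) and 50 were called higher, where 9.21% of all genes tested at day 4 were. Of the 92 lower genes, 86 were tested, 63 lay below 0 (73.3%, against 51.5%) and 33 were called lower, where 2.49% of all were. Among the 13310 genes tested on both days, 586 were called higher at day 4 and 338 lower. ACSL5 had a log2 fold change of -1.57 at day 4, GPAT3 of -1.99, AREG of -1.84, KRT23 of 2.00 and TWIST1 of 1.53. Other genes whose day 0 calls did not depend on a single library kept less of the difference or turned. CDKN2B had a log2 fold change of -0.51 at day 4, IGF2BP3 of -0.21, HBEGF of 0.48 and BEX4 of 2.22. In total 28 genes called at day 0 had the opposite sign at day 4. The median over the higher genes was 1.34 at day 4 and over the lower genes -0.70. Over the ATF4 list the median log2 fold change was 0.04 at day 4, with SESN2 at 0.18 and TRIB3 at -0.56.

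**Figure D3:**
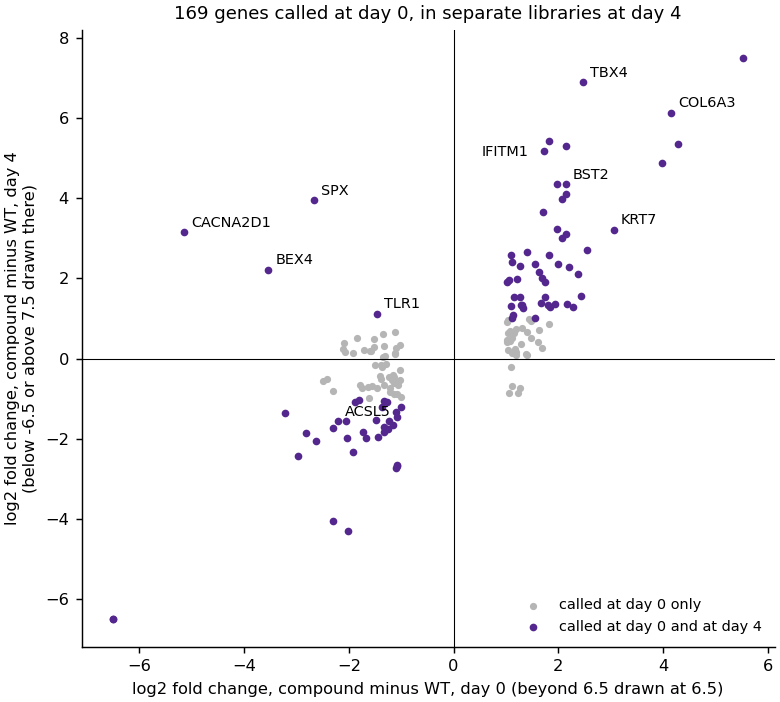
Log2 fold change of the compound line minus WT at day 0 and at day 4 for the 169 genes called at day 0 that were tested at day 4, with those called on both days in purple. Of the higher genes 78 of 83 lie above 0 at day 4 and of the lower genes 63 of 86 lie below 0, and BEX4, CACNA2D1, SPX and TLR1 lie in the opposite quadrant.

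Called genes were spread over the chromosomes in unequal shares. Over all genes tested 1.31% were called, 0.656% in each direction. In 278 runs of at most 50 neighbouring tested genes the median log2 fold change lay between -0.23 and 0.29, and no run held more than 4 called genes. Chromosome 17 held 17 higher genes and 1 lower (2.04% of 884 tested called), among them KRT23, KRT17, AXIN2 and TBX4, and its median log2 fold change was 0.05. Chromosome X held 0 higher and 8 lower genes of 441 tested (1.81% called), with a median of -0.02, among them PUDP, STS and BEX4. The higher genes of chromosome 17 and the lower genes of chromosome X thus made up larger shares than over all genes, which was not tested. Such shares were not particular to these chromosomes. Chromosome 4 had the largest share called of the nuclear chromosomes (2.52% of 515 tested, 4 higher and 9 lower). Chromosomes 22, 18 and 9 had 2.01%, 1.99% and 1.95% called. Medians per chromosome ran from -0.09 on chromosome 18 to 0.12 on chromosome 19 among the nuclear chromosomes.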

How the data were processed

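RNA of 3 libraries per line and day was prepared by the authors with a NEBNext Ultra kit, sequenced as paired ends, trimmed with Trimmomatic, aligned to hg38 with STAR and assigned to Ensembl genes with featureCounts. What they deposited is 1 table of raw, unnormalized counts for each library. Strand setting and treatment of multiply aligned reads are not given in the sources used here, which leaves counts uncertain for genes that overlap, lie antisense or have near-identical copies. Symbols were matched for 41937 of 58735 genes.

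Counts were tested with edgeR 4.0.16 in R 4.3.3 (filterByExpr within the libraries compared, TMM, robust quasi-likelihood test, Benjamini-Hochberg adjustment), with calls at an adjusted p below 0.05 and a change beyond 1 on the log2 scale, the thresholds of the study's methods. Each fit held the groups compared. The departure from additivity used all 12 day 0 libraries. DESeq2 1.42.0, other scaling, filters, thresholds, a length correction, the replicate number as a block and leaving out each library were alternatives. Scripts were tested on simulated data. Where every library of a group held at most 3 counts, a fold is a lower bound against 3 counts per library.

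Groups came from the labels. Samples, gene lists and the rule for named genes were chosen with earlier results of these data known. The rule named UHRF1 and DNMT1, up to 12 genes per direction with the smallest p among those called in every leave-one-out fit with replicates not overlapping, up to 4 called members of each list (with fewer than 2, the 2 members of smallest p), genes off in 1 group, and neighbours within 2 Mb of genes at 0. No pair of replicates was alike within sampling noise, and p-values measure only the spread among these libraries, which for WT may be technical. For the compound line they measure the spread among its clones. Whether these clones share a UHRF1-AID founder is not stated in the sources used here. Some called list members are not reported here.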

Additional observations from a re-analysis of the deposited data

Results flagged for a closer look

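4 genes called lower in the compound line than in WT at day 0 were called higher at day 4, and the change between the days was itself past the threshold (edgeR over the 12 libraries of both lines and days, Benjamini-Hochberg adjustment). BEX4 went from a log2 fold change of -3.54 to 2.22, a difference of 5.71 (standard error 0.34, adjusted p = 1.58e-07). CACNA2D1 went from -5.15 to 3.15, a difference of 8.22 (standard error 1.07, adjusted p = 0.000235). SPX, a neuropeptide gene, went from -2.66 to 3.95, a difference of 6.58 (standard error 0.76, adjusted p = 0.000106), and TLR1, a Toll-like receptor, from -1.46 to 1.12, a difference of 2.53 (standard error 0.45, adjusted p = 0.00207). The day 0 libraries enter both the call and the difference. CACNA2D1 had at most 1 count in any compound library at day 0, so its fitted fold change is no bound and depends on the prior count. The day 4 libraries of both lines come from another alignment folder than the day 0 libraries, and its part in these differences was not tested.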

How the results depend on the processing

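For the compound line against WT, RLE scaling, DESeq2, no filter on low counts, a minimum of 10 counts and removal of the length trend left the counts within 1.5 times (73 to 137 higher, 74 to 132 lower). Fitting all 12 libraries together gave 44 higher and 22 lower, an adjusted p under 0.01 gave 9 and 24, and no minimum fold gave 215 and 295. Removing the length trend and WT replicate 3 together, chosen after seeing the data, gave 130 and 207. Leaving out 1 library gave 12 to 151 higher and 18 to 215 lower. Against UHRF1-AID cells (32 higher, 18 lower) DESeq2 gave 61 and 47, the 12-library fit 0 and 0, length removal 16 and 7, no filter 121 and 74, adjusted p under 0.01 0 and 0, no minimum fold 182 and 167, and leaving out 1 library 0 to 133 and 0 to 105. Against DNMT1-AID cells (1 higher, 3 lower) DESeq2 gave 43 and 26, the 12-library fit 0 and 0, no filter 70 and 34, length removal 2 higher, adjusted p under 0.01 0 higher, and leaving out 1 library 0 to 1017 and 1 to 94. The departure from additivity had 0 higher in all alternatives and 3 lower with DESeq2, 0 to 3 when 1 library was left out.

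Same-numbered libraries of the compound line and WT had deviations that correlated at 0.07, 0.03 and 0.11, so the numbers were not taken to pair them. With the replicate number as a block 56 genes were higher and 74 lower than WT, 44 and 40 against UHRF1-AID cells (32 lower with the length trend also removed) and 2 and 4 against DNMT1-AID cells (1 lower with the length trend also removed).

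The share of called genes with the same sign at day 4 was 100% of the higher and 87.5% of the lower at an adjusted p under 0.01 and 75.2% of the higher with no minimum fold, and lay at 90.9% to 100% and 70.9% to 85.0% when 1 library was left out. Without WT replicate 3 the number of called members rose from 0 to 1 for the DNA methylation machinery, epithelial junction and colorectal epithelial lists, from 0 to 2 for cancer/testis genes, from 3 to 5 for EMT genes and from 1 to 2 for the MHC and TNF and the HOX lists. Of 1309 alternative values of named genes 7 changed sign, all of genes that were not called. COL1A1 (-0.14) stood at 0.0353 with the block and length removal and at -0.51 to 0.16 with 1 library left out (above 0 at 0.019 and 0.1592), HBA2 (0.58) at -0.14 to 1.09, and PNPLA4 (0.05) at -0.0362 to 0.1991 (also below 0 at -0.0326 and -0.0254). A further 147 no longer passed the threshold and 27 passed it newly. The cause of these changes was not tested. Depth limits genes near 3 counts per library.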
